A study of Mus musculus with 12 samples.

Results

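A second injection of the cytokine pair was set against a single injection in tumors collected 8 days after the first injection. The comparison used 6 of the study's 12 tumors, grouped by their labels. The 2-dose group (3 tumors, replicates A, B and C) received collagen-binding fusion proteins of interleukin-2 (IL-2) and interleukin-12 (IL-12) on days 0 and 6 and was collected 2 days after the second dose. The single-dose group (3 tumors, A, B and C) received the same proteins on day 0 only. Both groups were flank tumors of B16F10, a mouse melanoma line, in C57BL/6 mice whose age the labels do not state. The first injection was given into the tumor on day 6 of growth (day 0 here), and all 6 tumors received it. The other 6 tumors, 3 collected 2 days after a single dose and 3 collected 2 days after saline, entered the model to estimate the spread and appear here as levels only. The design text counts 4 mice in the 2-dose cohort in 1 place and the sample labels count 3; 3 were analysed. The study's 12 tumors include no saline group at day 8. The groups differ both in the number of doses and in the time since the last dose, 2 days against 8 days, and these cannot be told apart.

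IL-2 binds a receptor of T lymphocytes and natural killer (NK) cells and drives their growth and killing function. Its high-affinity form needs the alpha chain encoded by Il2ra, which IL-2 signaling itself induces. IL-12 acts on the same cells through STAT4 and induces interferon-gamma, which in turn raises antigen presentation, chemokines such as Cxcl9 and Cxcl10, and the ligand PD-L1 in tumor and myeloid cells. A fusion to a collagen-binding domain keeps an injected cytokine in the tumor matrix.

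RNA from formalin-fixed tissue was counted with the NanoString nCounter mouse PanCancer Immune panel, which counts bar-coded probes without amplification and holds 750 probes of genes under study and 20 housekeeping probes. Raw totals of the gene probes were 1132157, 1038324 and 392596 in 2-dose tumors A, B and C, and 941352, 612037 and 989732 in single-dose tumors A, B and C. The housekeeping probes had a geometric mean of 1058, 1168 and 529.9 counts in the 2-dose tumors, against 1638, 1545 and 1217 counts in the single-dose tumors. The groups did not overlap (919 ± 341 against 1467 ± 221 counts, SD, n = 3 each). The difference of the log2 means was -0.74, and its exact two-sided permutation p was 0.1, the smallest that 3 against 3 tumors allow. Divided by the positive controls, each of the 20 housekeeping probes was lower on average in the 2-dose tumors, by a median of -0.74 on the log2 scale. Since every gene below was scaled by these probes, this offset enters each value, and its cause was not tested.

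**Figure D1:**
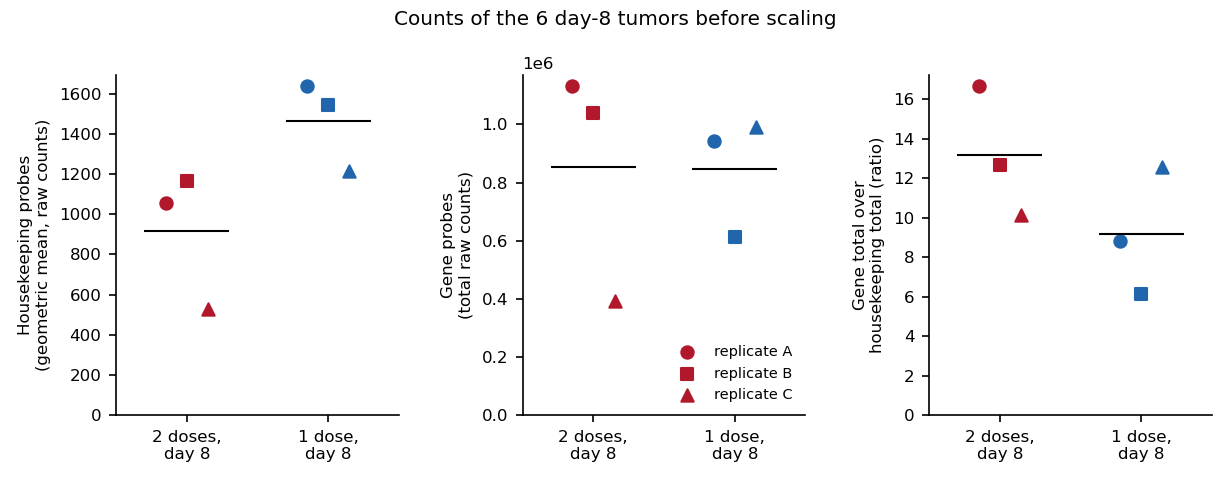
Raw counts of the 6 day-8 tumors before scaling. The left panel plots the geometric mean of the 20 housekeeping probes (raw counts), the middle panel the total raw count of the 750 gene probes and the right panel the ratio of the gene total to the housekeeping total. Red marks are 2-dose tumors, blue marks single-dose tumors, circles replicate A, squares B, triangles C, and bars the means of 3. The ratio was 16.7, 12.7 and 10.1 in the 2-dose tumors, against 8.82, 6.15 and 12.6 in the single-dose tumors, so single-dose replicate C lay inside the range of the 2-dose tumors.

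After scaling, the tested panel sat higher in the 2-dose tumors as a whole, but no single gene passed the test. Of 729 genes tested with edgeR's quasi-likelihood test and Benjamini-Hochberg adjustment over all of them, 0 were higher (0%) and 0 were lower (0%) at an adjusted p of 0.05, and the smallest adjusted p was 0.408. At an unadjusted p under 0.05, 72 genes were higher (9.88%) and 5 were lower (0.686%). The median log2 fold change of all genes was 0.41, with 618 genes above 0 (84.8%) and 111 below. Scaled by the trimmed mean of M-values (TMM, which centres most genes at no change), 369 of the 729 were above 0 (50.6%) and the median was 0.01. Scaled by the total count or by the positive controls, the median turned to -0.21 and -0.23. Each fold change below from the fit with all tumors includes this shift of 0.41, unless it is given relative to the median of all genes.

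The count of 0 changed when 1 tumor was left out. Without single-dose replicate C, the same edgeR test called 96 genes higher (13.2%) and 4 lower (0.549%), and the median of all genes was 0.71. With TMM scaling and without that tumor, it called 14 higher (1.92%) and 16 lower (2.19%), a setting chosen after seeing the data. Leaving out any other single tumor gave 0 calls. Replicate C was known from its values to lie near the 2-dose tumors, so leaving it out favors calls. Here and below, results without C describe the weight of this tumor and are not separate evidence of change. DESeq2, run on all 12 tumors, called 6 higher (0.823%) and 6 lower (0.823%) with its own size factors. The 6 higher genes were Ifng, Il2ra, Prf1, Gzma, Gzmb and Usp18, and the 6 lower genes were Birc5, Myc, Kdr, Itga6, Cd7 and Ncam1. With housekeeping size factors, DESeq2 called Ifng and Il2ra higher (0.274%) and Birc5 lower (0.137%).

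**Figure D2:**
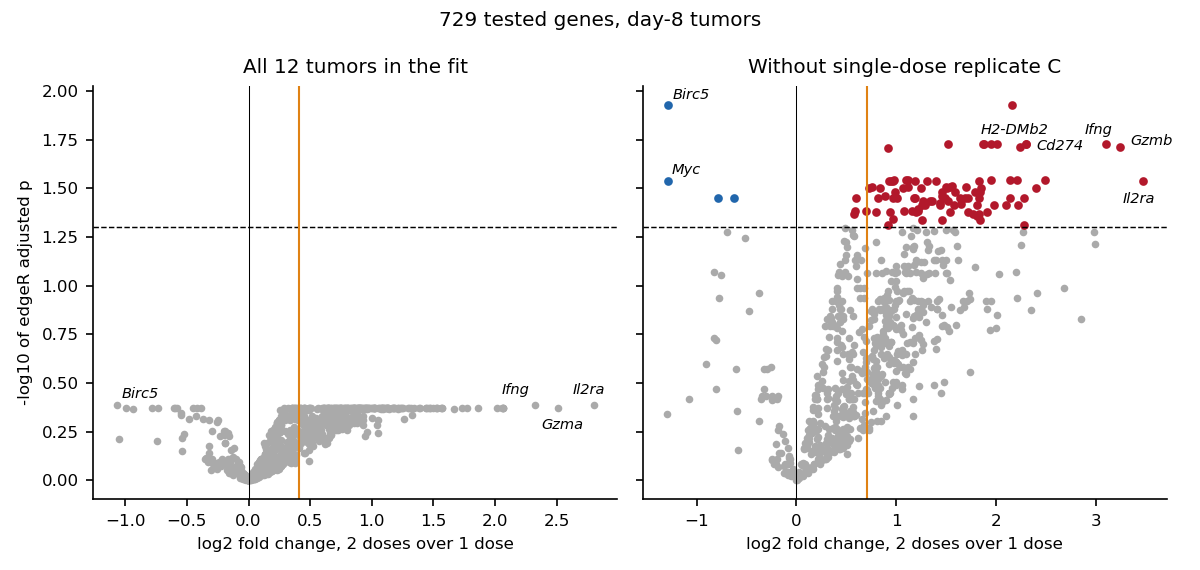
Change and test of the 729 genes. The x axis is the log2 fold change of 2-dose over single-dose tumors and the y axis is -log10 of the edgeR adjusted p. The left panel shows the fit with all 12 tumors and the right panel the fit without single-dose replicate C. The dashed line marks an adjusted p of 0.05, the orange line the median of all genes (0.41 left, 0.71 right), and red and blue points genes called higher (96) and lower (4).

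Each tumor's place was then measured as its Euclidean distance to the others over the 729 genes, on the scale log2(scaled count + 1). Single-dose replicate C lay 16.2, 19.3 and 14.8 from 2-dose tumors A, B and C, and 22.1 and 32.6 from single-dose tumors A and B. Its mean distance was 16.8 to the 2-dose tumors and 27.3 to the other 2 single-dose tumors. Replicate C was thus closer to each 2-dose tumor than to either tumor of its own group. The 2-dose tumors were not a tight group either, and each of them lay closer to single-dose C than to any other tumor. 2-dose B was nearer to single-dose A (19.5) and C (19.3) than to 2-dose A (22.1) and C (24.4), but 34.6 from single-dose B. Under TMM scaling the mean distances of single-dose C were 15.4 to the 2-dose tumors and 17.6 to single-dose A and B. Single-dose tumor A, at 15.4, was then nearer to single-dose C than 2-dose tumor B was, at 17.8. The counts that follow use housekeeping scaling alone. Among the single-dose tumors, C was the highest in 627 of 729 genes and B the lowest in 515. Single-dose A lay below all 3 of the 2-dose tumors in 412 genes, B in 506 and C in 86. Within the 2-dose group, tumor A was the highest in 469 genes.

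**Figure D3:**
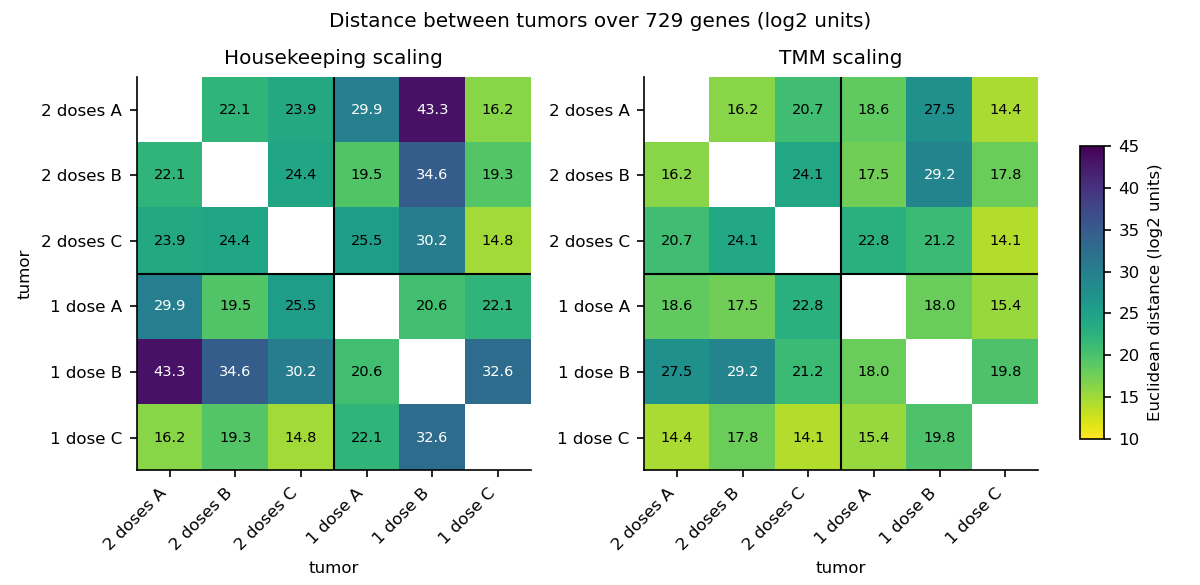
Euclidean distances between the 6 day-8 tumors over 729 genes on the scale log2(scaled count + 1), with housekeeping scaling at left and TMM scaling at right. Rows and columns are tumors, darker cells are farther apart, and black lines divide 2-dose from single-dose tumors. With housekeeping scaling, single-dose C was 14.8 to 19.3 from the 2-dose tumors and 22.1 to 32.6 from single-dose A and B.

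In 78 genes all 3 of the 2-dose tumors lay above all 3 single-dose tumors (10.7%), and in 12 genes they lay below (1.65%). Under TMM scaling the counts were 62 above (8.5%) and 34 below (4.66%), and 32 and 7 genes kept their side under both scalings. The separation was mostly narrow. In 13 genes the lowest 2-dose tumor was at least 1.2 times the highest single-dose tumor, and these were Ifng, Il2ra, Gzma, Gzmb, Prf1, Bcl6, Usp18, Bst2, H2-T23, Tnfrsf8, Il5, Hamp and Aire. They were listed after their values were seen, and Tnfrsf8, Il5 and Hamp were below background in some of the 6 tumors.

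Among receptors and signaling genes of the injected cytokines, Il2ra was set widest apart between the groups. Il2ra, the alpha chain of the IL-2 receptor, had scaled counts of 1719, 665 and 818 in 2-dose tumors A, B and C, and 131, 60.9 and 269.9 in single-dose tumors A, B and C. The lowest 2-dose tumor was 2.47 times the highest single-dose tumor, so the groups were well apart even with replicate C. The log2 fold change was 2.80 (SE 0.67), or 2.39 above the median of all genes, with an edgeR unadjusted p of 0.00168 and an adjusted p of 0.408. DESeq2 gave adjusted p-values of 0.000148 (own size factors) and 0.00469 (housekeeping size factors), and over the alternatives the adjusted p ran from 0.000148 to 0.972. Il2ra stood at 689, 1257 and 683 in tumors 2 days after a single dose and at 85.5, 58.9 and 18.3 in saline tumors.

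Il2rb, the beta chain that IL-2 shares with interleukin-15, had scaled counts of 3549, 2662 and 2043 in the 2-dose tumors, against 1331, 738 and 1729.6 in the single-dose tumors (log2 fold change 1.12, SE 0.51). The IL-12 receptor chain Il12rb1 had 1217, 1125 and 986 in the 2-dose tumors, and 289, 209 and 941 in the single-dose tumors. Single-dose tumors A and B were far below the 2-dose range for Il12rb1, and C lay just under it. Il12rb2, the chain that carries the STAT4 docking site, had 179, 92.4 and 128 in the 2-dose tumors and 60.3, 36.9 and 143 in the single-dose tumors, and there C lay inside the 2-dose range. Without C, edgeR gave Il12rb1 a log2 fold change of 2.16 (SE 0.29) and an adjusted p of 0.0118, in a range of 0.00869 to 0.972 over the alternatives. The genes of the cytokines themselves were low: Il2 was above background in 1 of 3 2-dose tumors and 2 of 3 single-dose tumors.

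Of 25 tested genes of IL-2 and IL-12 signaling, 0 passed the edgeR test in either direction, 22 had a log2 fold change above 0 and the median was 0.65, against 0.41 over all genes. Their median stayed above 0 under TMM, total-count and positive-control scaling (0.31, 0.09 and 0.06). Il2ra, Il2rb, Il15, Il12rb1 and Stat3, 5 of the 25, lay higher in the 2-dose tumors without overlap, where the panel had 10.7%. Under TMM scaling, 6 of the 25 lay higher and 2 lower without overlap, against 8.5% and 4.66% of the panel. Il15, a cytokine that shares the IL-2 receptor beta and gamma chains, had 117, 77.9 and 66.9 in the 2-dose tumors, and 38.6, 23 and 65.9 in the single-dose tumors. Stat3, a transcription factor of many cytokine receptors, had 5216, 5452 and 4458 in the 2-dose tumors, and 3049, 2400.2 and 4209 in the single-dose tumors. Feedback inhibitors of this signaling showed replicate C beside the 2-dose tumors: Socs1 had 2847, 2248 and 1717 in the 2-dose tumors, and 668, 363 and 1733 in the single-dose tumors. Without C, 10 of the 25 genes passed the edgeR test as higher, where the panel had 13.2%.

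**Figure D4:**
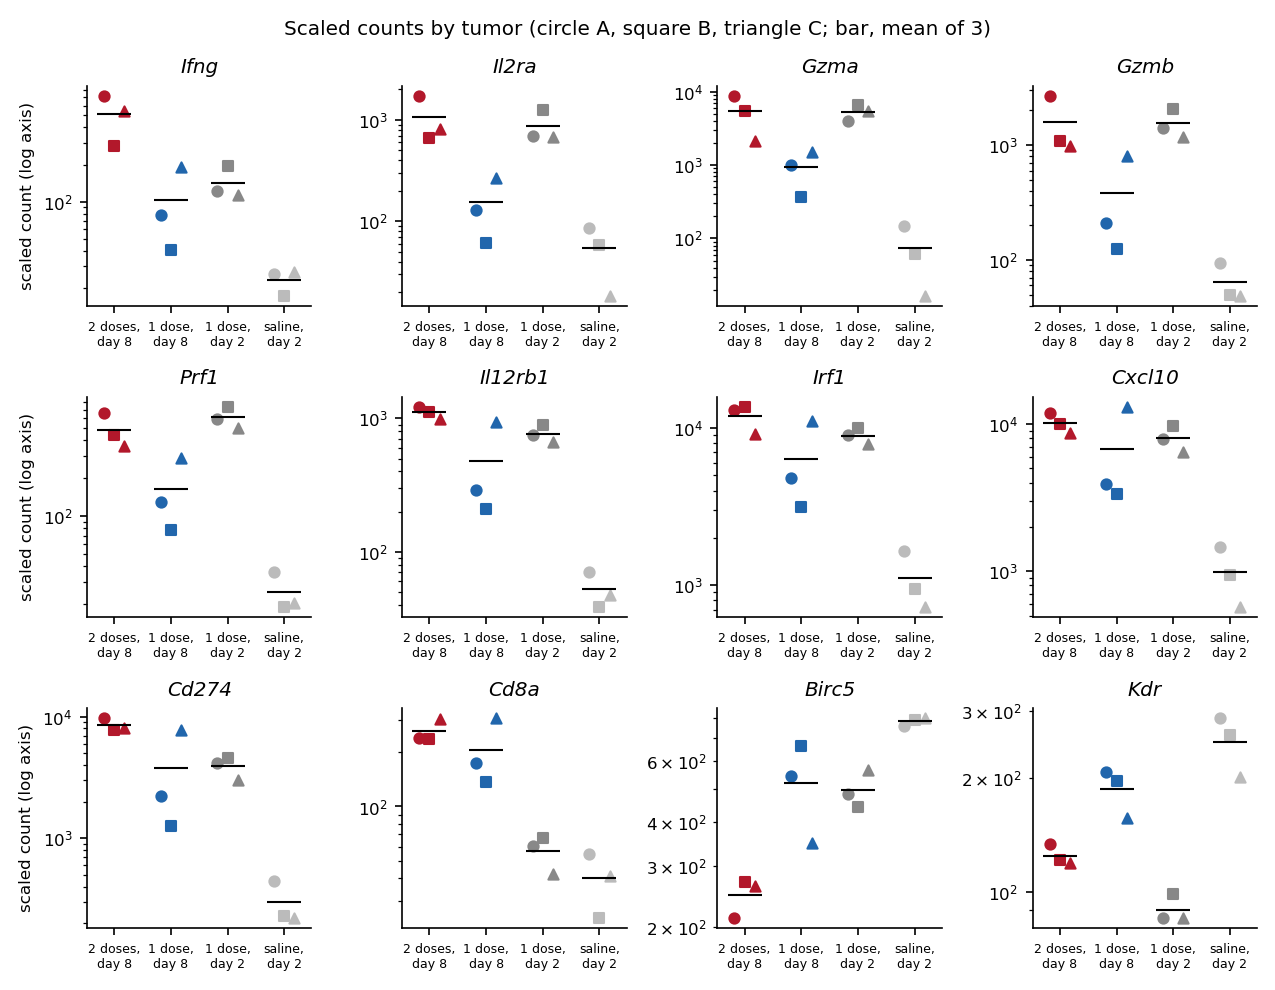
Scaled counts of 12 genes in every tumor, on log axes that differ between panels. Circles, squares and triangles are replicates A, B and C, and bars are means of 3. Red marks are 2-dose tumors and blue marks single-dose tumors at day 8, with single-dose tumors at day 2 and saline tumors in gray for reference. Il2ra (665 to 1719 against 60.9 to 269.9) and Ifng (282 to 717 against 40.9 to 190.1) separated the day-8 groups, while for Cxcl10 and Cd8a the single-dose C triangle was above all 3 of the 2-dose tumors.

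Interferon-gamma itself and the killing molecules of T and NK cells were also set apart. Ifng had scaled counts of 717, 282 and 538 in the 2-dose tumors, and 78.1, 40.9 and 190.1 in the single-dose tumors. The groups did not overlap, with a factor of 1.49 between the lowest 2-dose and the highest single-dose tumor. Its log2 fold change was 2.32 (SE 0.54), which is 1.91 above the median of all genes, with an edgeR unadjusted p of 0.00146 and an adjusted p of 0.408 (range over the alternatives 7.24e-05 to 0.972). Ifng stood at 122, 193 and 113 in tumors 2 days after a single dose and at 26, 17.1 and 26.9 in saline tumors. In these bulk samples, fewer cells of a type and less RNA per cell cannot be told apart.

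Gzma, the protease granzyme A, had 8751, 5449 and 2136 scaled counts in the 2-dose tumors, and 998, 368 and 1503 in the single-dose tumors (log2 fold change 2.51, SE 0.78). Gzmb, granzyme B, had 2672, 1076 and 984 in the 2-dose tumors, and 208, 125 and 807 in the single-dose tumors (2.06, SE 0.67). Prf1, the pore-forming protein perforin that lets granzymes into a target cell, had 665, 438 and 358 in the 2-dose tumors, and 129, 77.8 and 290.2 in the single-dose tumors (1.56, SE 0.46). For these 3 genes single-dose C was the highest single-dose tumor yet lay below every 2-dose tumor. The edgeR adjusted p was 0.425 for each of them. DESeq2 with its own size factors gave adjusted p-values of 0.0237, 0.0133 and 0.00436 for Gzma, Gzmb and Prf1, and with housekeeping size factors 0.0644, 0.149 and 0.148. Without C, edgeR called Gzmb (log2 fold change 3.24, SE 0.58, adjusted p 0.0194, range over the alternatives 0.00869 to 0.972) and Prf1, and Gzma missed the threshold at 0.0613.

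Of the 8 cytotoxic effector genes tested, 0 passed the edgeR test, 7 were above 0 and their median log2 fold change was 0.99 (0.70 under TMM scaling and 0.46 under total-count scaling). Gzma, Gzmb and Prf1 were the 3 members with no overlap, where the panel as a whole had 10.7% such genes. The marker sum of T cells (Cd3d, Cd3e, Cd3g, Cd2, Cd8a and Cd4) was 1677, 1583 and 1874 in the 2-dose tumors, against 1219, 801 and 2192 in the single-dose tumors. That sum overlapped between the groups, and it was highest in single-dose C. The NK marker sum (Ncr1, Klrb1c and Klrd1) was 1010.4, 894 and 533 in the 2-dose tumors, and 603, 384 and 691 in the single-dose tumors. The part of these cell numbers in the effector values was not tested.

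The promoters of the 10 genes with the smallest unadjusted p among the higher ones were read for 2 short motifs, TTCNNNGAA, a pattern bound by dimers of STAT proteins, and the letters GAAA repeated after 2 free bases, a pattern of interferon-response elements. RefSeq promoters (GRCm38.p6) were at hand for 8 of the 10, and the window was the 250 bases before the start, on both strands, with no overlap between the motif hits shown. Ifng and Bcl6 held TTCNNNGAA, which 8.13% of 27025 genes hold in the same window, and Gzma held the GAAA repeat, which 3.46% of genes hold. The sequences are shown because Ifng and Gzma were among the genes that set the groups apart; capitals mark the motif, and for Gzma it reads on the opposite strand. The Ifng window is chr10:118440796-118441045 (plus strand), the Bcl6 window chr16:23988853-23989102 (minus strand) and the Gzma window chr13:113100982-113101231 (minus strand). A match is a description of these letters and not a binding site.

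Ifng: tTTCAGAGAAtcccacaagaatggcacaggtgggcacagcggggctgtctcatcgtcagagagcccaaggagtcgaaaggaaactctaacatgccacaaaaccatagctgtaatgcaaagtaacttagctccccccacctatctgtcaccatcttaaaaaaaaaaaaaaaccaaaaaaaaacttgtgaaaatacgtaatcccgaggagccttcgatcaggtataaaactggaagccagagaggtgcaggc
Bcl6: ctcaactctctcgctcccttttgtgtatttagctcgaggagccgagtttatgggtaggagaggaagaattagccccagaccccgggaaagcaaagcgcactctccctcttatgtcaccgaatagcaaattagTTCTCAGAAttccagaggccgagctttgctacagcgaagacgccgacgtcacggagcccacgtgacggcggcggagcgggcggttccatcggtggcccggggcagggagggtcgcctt
Gzma: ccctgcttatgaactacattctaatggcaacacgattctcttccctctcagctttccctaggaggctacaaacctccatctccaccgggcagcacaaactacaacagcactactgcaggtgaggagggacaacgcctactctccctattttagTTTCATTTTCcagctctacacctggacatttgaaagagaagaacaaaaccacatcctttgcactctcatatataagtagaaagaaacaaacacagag

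Bcl6, a transcriptional repressor of follicular helper T cells and germinal-center B cells, had 259.5, 226 and 262 scaled counts in the 2-dose tumors, and 137, 71.9 and 176 in the single-dose tumors (log2 fold change 0.96, SE 0.30). Klrg1, a receptor of mature NK cells and effector T cells, had 429, 418 and 218 in the 2-dose tumors, and 206, 104 and 214 in the single-dose tumors. Its groups touched, since 2-dose C and single-dose C differed by a factor of 1.02. Among the same 10 genes, Ifitm1, an interferon-induced membrane protein, had 894, 285 and 422 in the 2-dose tumors, and 141, 143 and 295 in the single-dose tumors. There 2-dose B fell within the single-dose range. Jam3, an adhesion molecule of vessel walls, had 940.4, 1196 and 981 in the 2-dose tumors, and 563, 535 and 864 in the single-dose tumors. Tnfrsf8, the activation receptor CD30, had 64.1, 25.1 and 29.1 in the 2-dose tumors, and 11.3, 16 and 13.9 in the single-dose tumors, above background in 1 of the 6.

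Several genes of the response to interferon had single-dose C within or above the range of the 2-dose tumors. Irf1, the main transcription factor downstream of interferon-gamma, had 13029.6, 13612 and 9207 scaled counts in the 2-dose tumors, and 4782, 3151 and 11154 in the single-dose tumors. Cxcl9, a chemokine that draws activated T cells, had 13721, 9453 and 5628 in the 2-dose tumors, and 4236, 2546 and 9034 in the single-dose tumors. Cxcl10, of the same function, had 11887, 9978 and 8678 in the 2-dose tumors, and 3915, 3334 and 13066 in the single-dose tumors. In each of these genes single-dose A and B lay below all 2-dose tumors, and C lay within or above the 2-dose range. Cd274, which encodes PD-L1, had 9751, 7780.1 and 8052 in the 2-dose tumors, and 2209, 1257 and 7841 in the single-dose tumors. With all tumors its log2 fold change was 1.18 (SE 0.58) and the edgeR adjusted p was 0.425. Without C these were 2.30 (SE 0.40) and 0.0188 (range over the alternatives 0.011 to 0.972).

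Of 25 interferon-gamma response genes tested, 0 passed the edgeR test, 25 were above 0 and the median log2 fold change was 0.87 (0.60 under TMM and 0.37 under total-count scaling). Single-dose A lay below all 2-dose tumors in 23 of the 25, B in 25 and C in 8, against 412, 506 and 86 of all 729 genes. Without C, 14 of the 25 passed as higher, where the panel had 13.2%. Irf8, a transcription factor of myeloid and dendritic cells that interferon-gamma induces, had 3568, 3839 and 2826 in the 2-dose tumors, and 1202, 745 and 2627 in the single-dose tumors. Gbp2b, a guanylate-binding protein, was uneven within both groups, with 2575, 2286 and 299.7 in the 2-dose tumors, and 472, 65.9 and 702 in the single-dose tumors. Ido1, an enzyme that breaks down tryptophan, had 90.4, 71.3 and 84.4 in the 2-dose tumors, and 27.3, 63.9 and 71 in the single-dose tumors.

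Of 30 type I interferon response genes tested, 0 passed the edgeR test, 30 were above 0 and the median was 0.79 (0.47 under TMM and 0.25 under total-count scaling). In 8 of the 30 the 2-dose tumors lay higher without overlap, where the panel had 10.7%. Bst2, the membrane tether that holds budding viruses, had 13627, 15668 and 14139.8 in the 2-dose tumors, and 5973, 4537 and 10320.4 in the single-dose tumors (log2 fold change 1.06, SE 0.41). Ifi35 had 3594, 4413 and 3771 in the 2-dose tumors, and 1742, 1237 and 3137 in the single-dose tumors (0.95, SE 0.35). In both genes every 2-dose tumor was above single-dose C. Usp18, a protease that restrains type I interferon signaling, had 1163, 1134 and 1036 in the 2-dose tumors, and 368, 182 and 853 in the single-dose tumors. Its DESeq2 adjusted p with own size factors was 0.05, in a range of 0.0135 to 0.972 over the alternatives. Ifit3, by contrast, had 6437, 8946 and 5465 in the 2-dose tumors, and 2098, 905 and 8199 in the single-dose tumors, with C inside the 2-dose range.

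Antigen presentation genes showed the same split among the single-dose tumors. H2-T23, the non-classical class I molecule Qa-1, had 32872, 31882 and 28166 scaled counts in the 2-dose tumors, and 8051, 3709 and 22114 in the single-dose tumors (log2 fold change 1.46, SE 0.60). Single-dose C held several times the counts of A and B and still lay below all 2-dose tumors. H2-M3, which presents formylated peptides, had 1493, 1361 and 1237 in the 2-dose tumors, and 549.8, 386 and 1215 in the single-dose tumors. Tapbp, the peptide-loading chaperone tapasin, had 3021, 3131 and 2642 in the 2-dose tumors, and 1239, 727 and 2534 in the single-dose tumors. For H2-M3 and Tapbp the lowest 2-dose tumor was 1.02 and 1.04 times single-dose C. Of 17 class I genes tested, 17 were above 0 with a median of 0.80 (0.50 under TMM and 0.27 under total-count scaling), 8 did not overlap (10.7% over the panel) and 0 passed the edgeR test.

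Class II presentation had 10 tested genes, of which 10 were above 0 with a median of 0.87 (0.60 under TMM and 0.38 under total-count scaling), and 0 passed the edgeR test. H2-Dma, a chain of the class II peptide exchange factor, had 6542, 6160.4 and 5608 in the 2-dose tumors, and 1990.2, 1097 and 5057 in the single-dose tumors. Ciita, the master activator of class II genes, had 707, 689 and 489 in the 2-dose tumors, and 241, 139.7 and 675 in the single-dose tumors. H2-DMb2, the other chain of the exchange factor, had 386, 413 and 369.6 in the 2-dose tumors, and 104, 53.9 and 512 in the single-dose tumors. The last of these was higher in single-dose C than in any 2-dose tumor, and C exceeded the mean of A and B by 2.76 on the log2 scale. Without C, edgeR gave H2-DMb2 a log2 fold change of 2.31 (SE 0.38) and an adjusted p of 0.0188 (range over the alternatives 0.0135 to 0.972), against 0.81 (SE 0.65) and 0.521 with all tumors.

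Markers of T cells overlapped between the groups. Cd8a, the co-receptor of cytotoxic T cells, had 241, 238 and 306 scaled counts in the 2-dose tumors, and 174, 137 and 309 in the single-dose tumors. Cd3e, a chain of the T cell receptor complex, had 264, 272 and 282 in the 2-dose tumors, and 199, 116 and 365 in the single-dose tumors. Cd4, the helper T cell co-receptor, had 146, 63.4 and 119 in the 2-dose tumors, and 91.3, 96.8 and 184 in the single-dose tumors. In each of the 3 genes single-dose C was the highest of the 6 tumors. Their log2 fold changes were 0.34 (SE 0.36), 0.27 (SE 0.44) and -0.18 (SE 0.43), and relative to the median of all genes -0.07, -0.14 and -0.59. The fold changes of Cd8a and Cd3e turned negative under total-count and positive-control scaling, and under TMM they were 0.01 and -0.02. Foxp3, the transcription factor of regulatory T cells, was below background in all 6 tumors.

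For Cd8a the levels at day 8 stood apart from those of the earlier tumors, at 60.6, 66.5 and 42.4 in single-dose tumors at day 2 and 54.8, 24 and 41.2 in saline tumors. Of 27 T cell genes tested, 0 passed the edgeR test, 22 were above 0 and the median log2 fold change was 0.43, close to the 0.41 of all genes (0.07 under TMM and -0.13 under total-count scaling). In 1 of the 27 the 2-dose tumors lay higher without overlap, where the panel had 10.7%, and under TMM scaling 1 lay higher and 4 lower without overlap (8.5% and 4.66% of the panel). With housekeeping scaling that gene was Zap70, a kinase of T cell receptor signaling, at 254, 183 and 221 in the 2-dose tumors, and 121, 72.9 and 182 in the single-dose tumors. Tbx21, the transcription factor T-bet of type 1 responses, had 162, 132 and 195 in the 2-dose tumors, and 70.6, 71.9 and 148 in the single-dose tumors. Of 24 NK cell genes tested, 22 were above 0 with a median of 0.53 (0.13 under TMM and -0.08 under total-count scaling) and 0 passed.

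Among inhibitory receptors, Pdcd1, which encodes PD-1, had 261, 211 and 282 scaled counts in the 2-dose tumors, and 138, 125 and 207 in the single-dose tumors (log2 fold change 0.68, SE 0.35). Its groups did not overlap, by a factor of 1.02. Ctla4, a brake on T cell priming, had 277, 159.7 and 393 in the 2-dose tumors, and 101, 92.8 and 257 in the single-dose tumors. Lag3 and Havcr2, which encodes TIM-3, had log2 fold changes of 0.49 (SE 0.48) and 0.08 (SE 0.38), and Havcr2 lay -0.33 from the median of all genes. For Havcr2 single-dose C, at 293, was above all 2-dose tumors, which had 214, 162 and 192. Of 16 checkpoint genes tested, 15 were above 0 with a median of 0.73 (0.32 under TMM and 0.14 under total-count scaling) and 0 passed the edgeR test. Tnfrsf18, the co-stimulatory receptor GITR, had 192, 73.9 and 90.2 in the 2-dose tumors, and 47.1, 44.9 and 77.3 in the single-dose tumors.

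Chemokines that attract monocytes had the largest median of the 28 lists, and here the 2-dose tumors themselves were far apart. Ccl2, the ligand of Ccr2, had 11464, 6283 and 3248 scaled counts in the 2-dose tumors, and 2054, 831 and 6173 in the single-dose tumors. Ccl9, a chemokine of myeloid cells in mice, had 11261, 4415 and 2238 in the 2-dose tumors, and 2092, 877 and 2420.1 in the single-dose tumors. Ccl11, eotaxin, had 3713, 2434 and 247 in the 2-dose tumors, and 672, 164 and 698 in the single-dose tumors. In each of the 3, 2-dose C lay below single-dose C, so that the difference rested on 2-dose A and B. Of the 12 genes tested, 12 were above 0 with a median log2 fold change of 1.23 (0.87 under TMM and 0.68 under total-count scaling), 5 had an unadjusted p under 0.05 (9.88% over the panel), 0 were without overlap (10.7% over the panel) and 0 passed the edgeR test.

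Macrophage genes also spread within both groups. Arg1, an arginine-degrading enzyme, had 13199, 3056 and 4787 in the 2-dose tumors, and 1985, 647 and 3523 in the single-dose tumors (log2 fold change 1.77, SE 0.82). Nos2, the inducible nitric oxide synthase, had 1994, 781 and 1362 in the 2-dose tumors, and 399, 169.7 and 1254 in the single-dose tumors (1.18, SE 0.65). For both, single-dose C lay within the 2-dose range. The scavenger receptor Cd163 and the mannose receptor Mrc1 spread widely within the 2-dose group, with 485, 323 and 78.6 for Cd163 and 3308, 1731 and 375 for Mrc1, against 262, 34.9 and 174 and 1347, 255 and 1034 in the single-dose tumors. Of 30 macrophage and monocyte genes tested, 28 were above 0 with a median of 0.77 (0.33 under TMM and 0.14 under total-count scaling), 0 were without overlap (10.7% over the panel) and 0 passed. The macrophage marker sum (Cd68, Csf1r, Cd14 and Msr1) was 14142, 8053 and 6286 in the 2-dose tumors, against 6138, 3031 and 8097 in the single-dose tumors.

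Neutrophil genes varied between single tumors of both groups. S100a8, a calcium-binding protein abundant in neutrophils, had 2563, 343 and 2325 in the 2-dose tumors, and 439.7, 410.2 and 1031 in the single-dose tumors. The value of 2-dose B was below all single-dose tumors, while 2-dose A and C were above them. The neutrophil chemokine Cxcl5 had 1026, 397 and 113 in the 2-dose tumors, and 192, 65.9 and 123 in the single-dose tumors. Lcn2, an iron-binding protein of neutrophils and inflamed epithelium, had 1417, 1604 and 151 in the 2-dose tumors, and 707, 199 and 198 in the single-dose tumors. Of 19 neutrophil genes tested, 18 were above 0 with a median of 0.79 (0.47 under TMM and 0.30 under total-count scaling), and 0 passed. Complement genes had a median of 0.66 over 29 tested (0.26 under TMM and 0.03 under total-count scaling), and 3 of the 29, C1ra, C2 and Masp1, were free of overlap, a share near the 10.7% of the panel. C2, a protease of the classical pathway, had 10160.4, 12033 and 10761 in the 2-dose tumors, and 4363, 3306 and 9294 in the single-dose tumors.

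With housekeeping scaling few genes were lower, 111 of 729, and the smallest edgeR unadjusted p of all belonged to 1 of them. That scarcity depended on the scaling: under TMM, 369 of the 729 were above 0. Without overlap, 34 then lay lower (4.66%) and 62 higher (8.5%), against 12 and 78 with housekeeping scaling. Birc5, which encodes the mitotic and anti-apoptotic protein survivin, had 211, 269 and 262 scaled counts in the 2-dose tumors, and 544, 662 and 348 in the single-dose tumors. Its groups did not overlap, and the lowest single-dose tumor, C, was 1.29 times the highest 2-dose tumor. The log2 fold change was -1.07 (SE 0.23), or -1.48 relative to the median of all genes, with an edgeR unadjusted p of 0.000875 and an adjusted p of 0.408 (range over the alternatives 0.0103 to 0.972). Birc5 stood at 481, 441 and 564 in single-dose tumors at day 2 and 755, 789 and 798 in saline tumors. It was 1 of the genes that DESeq2 called with both kinds of size factors, and without single-dose C edgeR gave -1.29 (SE 0.17) and an adjusted p of 0.0118.

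Myc, a transcription factor of cell growth, had 725, 653 and 428 in the 2-dose tumors, and 1211, 1735 and 665 in the single-dose tumors (log2 fold change -1.41 relative to the median of all genes). Single-dose C lay within the 2-dose range for Myc. The nuclear pore gene Nup107 had 555, 557 and 573 in the 2-dose tumors, and 825, 902 and 529.6 in the single-dose tumors, where C was below all 3 of the 2-dose tumors. Hmgb1, a chromatin protein released by dying cells, had 1623, 2159.5 and 1839 in the 2-dose tumors, and 3041, 3409 and 2122 in the single-dose tumors. These 3 genes and Birc5 were the 4 called lower without C, with edgeR adjusted p-values of 0.0289, 0.0354, 0.0354 and 0.0118 in the order Myc, Nup107, Hmgb1 and Birc5. Cdk1, the kinase that drives entry into mitosis, had 51, 38.3 and 43.7 in the 2-dose tumors, and 67.8, 83.8 and 49.4 in the single-dose tumors. The background limits of 2-dose A, B and C were 42.6, 37.1 and 54.9 scaled counts, so Cdk1 was below background in C and near it in A and B. The proliferation list held 14 genes, of which Mki67, Top2a, Ccnb1 and Pcna, among others, were not on the panel. Its 7 tested members are not all markers of dividing cells. Of these 7, 2 were above 0 and the median was -0.26 (-0.74 under TMM and -0.94 under total-count scaling). Birc5 and Ewsr1 lay lower without overlap (1.65% over the panel) and Cdkn1a, a cell cycle inhibitor, higher (10.7% over the panel). Under TMM scaling, 1 of the 7 lay lower and 0 higher without overlap, against 4.66% and 8.5% of the panel.

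Kdr, the receptor VEGFR2 of endothelial cells, had 134, 121 and 119 scaled counts in the 2-dose tumors, and 208, 197 and 157 in the single-dose tumors (log2 fold change -0.58, SE 0.21). Itga6, an integrin that binds laminin, had 464, 330.0 and 407 in the 2-dose tumors, and 546, 563 and 536 in the single-dose tumors. Neither overlapped between the groups, and for Itga6 the 3 single-dose tumors lay close together. Cd7 had 125, 77.9 and 90.2 in the 2-dose tumors, and 196, 148 and 163 in the single-dose tumors. Ncam1, a neural adhesion molecule that marks NK cells in humans, had 169, 120.1 and 148 in the 2-dose tumors, and 300.3, 218 and 210.3 in the single-dose tumors. DESeq2 with its own size factors gave adjusted p-values of 0.0482, 0.0183, 0.022 and 0.0307 for Kdr, Itga6, Cd7 and Ncam1, and edgeR gave 0.425 for each.

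Genes of vessels, matrix and tumor cells lay on both sides of 0. Pecam1, a junction protein of endothelium, had 523, 302 and 338 in the 2-dose tumors, and 546, 331 and 346 in the single-dose tumors. Of 18 vessel genes tested, 10 were above 0 with a median of 0.05, which was -0.36 under TMM and -0.59 under total-count scaling. The collagen gene Col1a1 had 4469, 2089.6 and 588 in the 2-dose tumors, and 7252, 2818 and 1884 in the single-dose tumors. Of 17 matrix genes, 10 were above 0 with a median of 0.31, which turned to -0.15 under TMM and -0.38 under total-count scaling. The fibroblast marker sum (Col1a1, Col3a1, Pdgfrb and Thy1) was 16826, 9434 and 1979 in the 2-dose tumors, against 21884, 7104 and 7067 in the single-dose tumors. Of the 7 melanoma markers listed, S100b and Mcam were on the panel, and their sum was 2553, 2691 and 2494 in the 2-dose tumors, and 2566, 2476 and 2772 in the single-dose tumors. Of 17 B cell genes, 15 were above 0 with a median of 0.33 (-0.14 under TMM), and 0 of their 4 defining markers were above background in all 6 tumors.

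**Figure D5:**
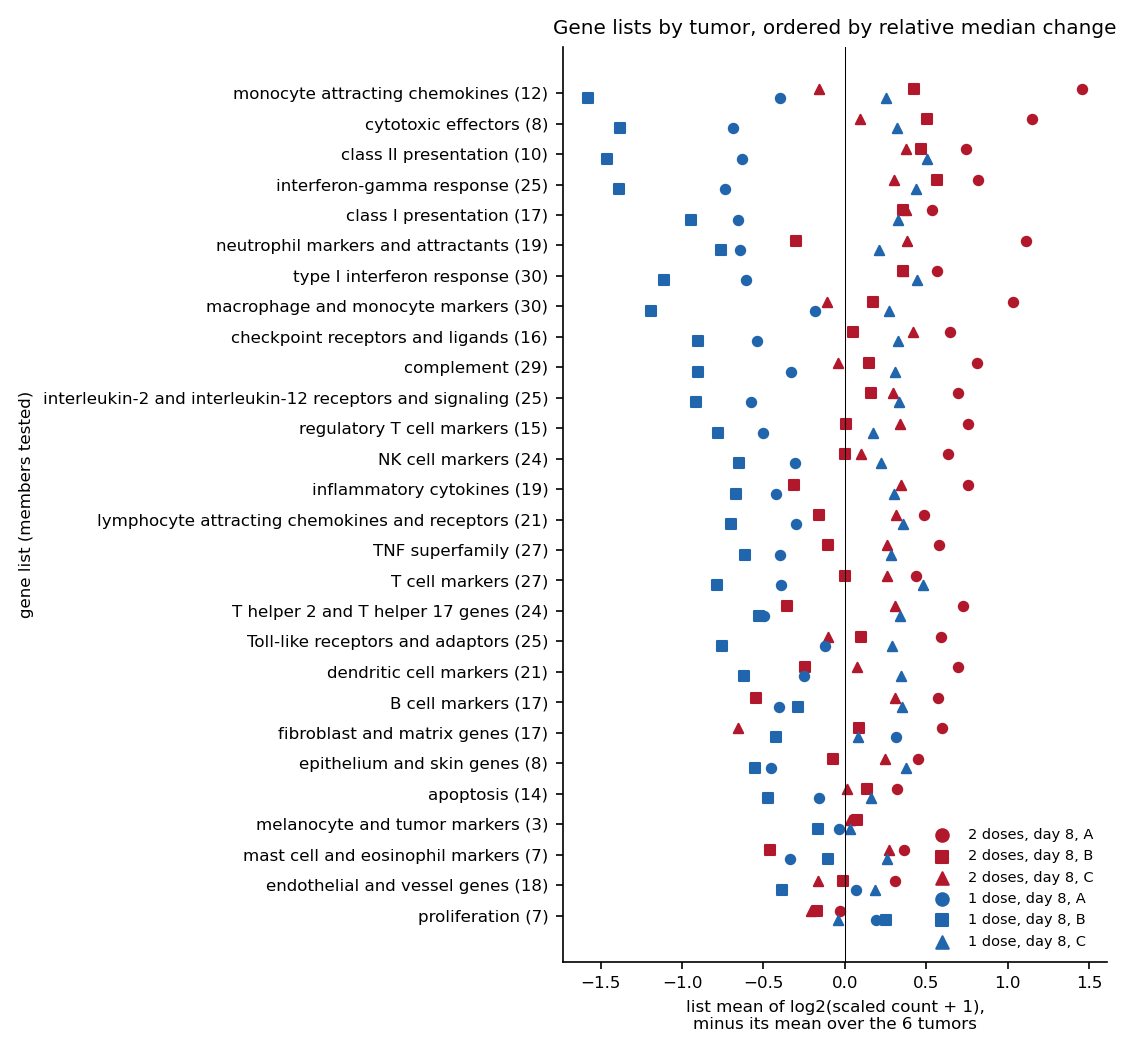
Mean of log2(scaled count + 1) over the tested members of 28 gene lists, with the mean over the 6 tumors subtracted, ordered by the list's median change relative to all genes. Red marks are 2-dose tumors and blue marks single-dose tumors, with circles, squares and triangles for replicates A, B and C. Single-dose C (blue triangles) lay at 0.44 for the interferon-gamma response and 0.32 for cytotoxic effectors, 2-dose C at 0.30 and 0.09, and single-dose B at -1.38 for both.

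Within the single-dose group, the genes that set replicate C apart were described without a test. The 8 genes of at least 50 scaled counts on average in which C most exceeded the mean of A and B were H2-DMb2, Ifit3, Gzmb, Ifi44, Nos2, Ccl2, Cd274 and Cxcl3, by 2.17 to 2.76 on the log2 scale. The 8 in which C was lowest against A and B were Birc5, Myc, Vwf, Mcam, Lcn2, Col1a1, Col3a1 and Cxcl14, by -0.78 to -1.39. Across all tested genes, the median difference of C from the mean of A and B was 0.80, against a median of -0.04 for the 2-dose mean minus C. In 646 of 729 genes C was nearer to the mean of the 2-dose tumors than to the mean of single-dose A and B. These gene lists, medians and this count use housekeeping scaling alone, which divided C by 0.789 and A and B by 1.06 and 1.00. Under TMM scaling, the mean distance of C was 15.4 to the 2-dose tumors and 17.6 to single-dose A and B. Of the 100 genes that passed the edgeR test without C, 34 had no overlap between the groups with C included, and in 66 C overlapped the 2-dose tumors.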

How the data were processed

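Each sample's deposited file gave unscaled whole-number counts of every probe, per the file headers. The series table held signal values normalized by the authors before deposit, per the labels in nSolver (version not stated there). Within a sample its gene values were the raw counts multiplied by 1 factor, to within 0.00882% for counts of 100 or more, and its 168 control values equalled the raw counts. It was used only as an alternative. Of 770 gene probe names, 746 matched a RefSeq gene of GRCm38.p6, 9 of them under another symbol.

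Raw counts were divided by each sample's geometric mean of the 20 housekeeping probes, relative to the mean of all samples, which gave the scaled counts. Genes were tested if they exceeded background (mean of a sample's 8 negative probes, plus 2 SD) in at least 3 samples, which kept 729 and left out 21. In scaled counts this background limit was 42.6, 37.1 and 54.9 in the 2-dose tumors, and 22.3, 24.9 and 31.8 in the single-dose tumors. Gene totals ran from 392596 to 1232726 over the 12 samples, and 575 of the tested genes were above background in all 6 day-8 tumors.

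The test was edgeR 4.0.16 (glmQLFit, robust, and glmQLFTest) in R 4.3.3, with all 12 samples in 1 fit of 4 groups, library sizes proportional to the housekeeping mean, Benjamini-Hochberg adjustment and a threshold of 0.05. The procedure was tested on simulated counts in which genes varied independently of each other. It recovered 37% of 2-fold, 85% of 4-fold and 97% of 8-fold changes, and called 4 of 529 unchanged genes. Changes of 2-fold or less can thus be missed. The simulated counts held no shift of a whole tumor such as that of single-dose C, so these shares cannot be carried over to the tumors. There, larger changes missed the threshold too: Il2ra, at a log2 fold change of 2.80, had an edgeR adjusted p of 0.408. Labels put each sample in its group, and replicates are separate mice. Between replicates of a group, the chi-square of the counts was 24.2 to 154 for each degree of freedom, so each sample was counted once. The members, the 28 gene lists and the tests were chosen with earlier results of these data known. The rule named the 10 genes with the smallest unadjusted p in each direction where fewer than 10 passed, up to 4 members of each list, genes fixed by name, and the 8 highest and 8 lowest of single-dose C against A and B. Mki67, fixed by name, is not on the panel, and 1 gene that the rule named is not reported here.

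The alternatives were other scalings (TMM, total count, positive controls, the 10 steadier housekeeping probes), DESeq2 1.42.0, limma 3.58.1 on the authors' values, other filters, a fit of the 6 tumors alone, negative probes subtracted, a replicate block and leaving out each sample. Promoters are those of RefSeq GRCm38.p6.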

Additional observations from a re-analysis of the deposited data

How the results depend on the processing

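The number of genes changed was 0 in the main analysis and 0 in each alternative not named here. It was 12 (6 higher, 6 lower) with DESeq2's own size factors and 3 (2 higher, 1 lower) with housekeeping size factors. Leaving out 1 tumor gave 0 to 100 genes, 0 to 96 higher and 0 to 4 lower, with all calls from the fit without single-dose replicate C. TMM scaling without that tumor gave 30 genes, 14 higher and 16 lower. The median of all genes turned to -0.21 with the total count and -0.23 with the positive controls, and ran from 0.22 to 0.71 with 1 tumor left out. The distance of single-dose C to the 2-dose tumors minus that to single-dose A and B was -10.6, -10.1 with a pseudocount of 10, -2.15 with TMM scaling and -1.27 with the total count. The housekeeping difference ran from -0.96 to -0.39 with 1 tumor left out.

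Of 91 named genes, 75 kept their direction in every alternative and 16 turned in at least 1, none of them past the threshold in the main analysis. With the total count the log2 fold changes turned to -0.20 for Cd8a, -0.23 for Cd3e, -0.096 for Foxp3, -0.028 for Lag3, -0.44 for Havcr2, -0.11 for Ncr1, -0.38 for Ccr2, -0.14 for S100b and -0.087 for Ido1. With the positive controls they were -0.34 for Cd8a, -0.36 for Cd3e, -0.17 for Lag3, -0.55 for Havcr2, -0.014 for Ncr1, -0.32 for Ccr2, -0.26 for S100b and -0.00985 for Ido1. DESeq2's own size factors gave -0.0039 for Cd8a, -0.025 for Cd3e, -0.25 for Havcr2 and -0.18 for Ccr2. TMM scaling gave -0.018 for Cd3e, -0.23 for Havcr2 and -0.17 for Ccr2, and without single-dose C -0.061 for Foxp3, -0.052 for Havcr2, -0.026 for Ncr1 and -0.18 for Ccr2. The steadier housekeeping probes gave -0.046 for Havcr2, and limma on the authors' values 0.038 for Il2. With 1 tumor left out, the values ran from -0.46 to 0.21 for Cd4, -0.046 to 0.79 for Cd3e, -0.22 to 0.62 for Havcr2, -0.34 to 0.55 for Ccr2, -1.57 to 0.020 for Col1a1, -1.11 to 0.56 for Col3a1, -0.99 to 0.38 for Cxcl14, -0.38 to 0.54 for Il2, -0.61 to 0.00210 for Il12b and -0.35 to 0.20 for Pecam1. The causes were not tested.

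The replicate block was run because groups share the letters A, B and C, and it gave 0 calls and a median of 0.37. Deviations of same-lettered tumors of the 2 groups correlated at 0.25 for A, -0.42 for B and -0.03 for C. No steady pairing by letter was seen, but 3 values cannot settle whether the letters pair the samples. With 3 tumors a group, a raw gene total of 392596 in 2-dose C and higher scaled background limits in the 2-dose tumors, low genes are known least well.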
